A study of Mus musculus with 2 samples.

Results

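Arterial endothelial cells line the vessels that bring blood into the temporomandibular joint (TMJ). They were chosen here by raw counts of unique molecular identifiers (UMIs), each of which marks a captured RNA molecule. A barcode had to hold at least 500 genes, at most 10% mitochondrial UMIs and at most 1% UMIs of the 4 hemoglobin genes *Hba-a1*, *Hba-a2*, *Hbb-bs* and *Hbb-bt*. It then needed at least 3 UMIs of the endothelial genes *Pecam1*, *Cdh5*, *Kdr* and *Flt1* together, no UMI of the leukocyte gene *Ptprc* and under 3 UMIs of the venular genes *Selp*, *Ackr1* and *Plvap* together. At least 2 UMIs of *Gja5*, *Sema3g*, *Stmn2* and *Hey1* together, called the arterial sum below, made a cell arterial. By this rule 550 of the 2103 endothelial cells that passed the limits up to *Ptprc* were arterial, out of 6681 cells within the limits and 13380 deposited barcodes. The PBS library held 285 of them and the CFA library 265. Each condition has 1 library, so no difference between the conditions has a replicate check and no test was made.

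The study injected complete Freund's adjuvant (CFA), an oil with killed mycobacteria that sets off inflammation, into both TMJs of mice and compared them with joints injected with PBS. Both groups were WT C57BL/6 mice, 8 to 10 weeks old in the labels, and the methods describe female mice whose joints received 10 µL, either PBS or 5 mg/mL CFA, when they were 8 weeks old. The joint region, with condyle, disc, temporal bone, muscle and ligament, was collected 3 weeks later, with n = 3 in the methods, and no source used here says how many mice each library pools. Cells carrying CD45, the product of *Ptprc*, were depleted before loading, and the labels and the methods differ in the enzymes and the kit version. The libraries shared 10 barcode sequences, of which 0 were arterial in both.

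Arterial endothelium differs from that of capillaries and veins in ways set by blood pressure and by Notch signaling. Its cells are coupled by the connexins of gap junctions, send Notch ligands to each other and to the smooth muscle around them, and secrete the proteins of the elastic layer under them. In joints, arterioles set the flow into the capillary beds of the synovium and bone, whose endothelium takes up fatty acids and exchanges water and gases. Values below are UMIs of a gene summed over the cells of a class and scaled to 1000000 UMIs (CPM), with 95% intervals in parentheses. Intervals are exact (Poisson for a sum, binomial for a share or a ratio of 2 sums) and cover counting error only, not differences between mice or preparations.

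The 4 arterial genes entered the rule with unequal weight. *Stmn2*, which encodes a microtubule-binding protein best known from neurons (GRCm38 chromosome 3, 8509360 to 8561606), was detected in 248 of the 285 PBS cells (87.0%) and in 202 of the 265 CFA cells (76.2%). *Sema3g*, a secreted guidance protein of the semaphorin family (chromosome 14, 31217860 to 31230352), was found in 154 PBS cells (54.0%) and 198 CFA cells (74.7%). *Hey1*, a transcriptional repressor that Notch induces (chromosome 3, 8663359 to 8667256), was found in 49.1% and 43.4%. *Gja5*, the gene of connexin 40 (chromosome 3, 96904693 to 97077416), was the rarest, with 18.9% and 31.7%. *Stmn2* alone brought in 88 PBS cells (30.9%, interval 25.6 to 36.6%) and 34 CFA cells (12.8%, interval 9.05 to 17.5%), while no cell entered on *Gja5* alone. All 4 genes were present in 35 PBS cells (12.3%) and 39 CFA cells (14.7%). These values describe how the rule worked and carry no comparison of the conditions.

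Genes that the rule did not use showed that the class runs from cells with few arterial transcripts to cells with many. Depth rose with the sum too, from medians of 4381 to 14130.0 UMIs in PBS and from 3182 to 9328 in CFA. Mixed droplets, described below, are included, and the part of depth and of these droplets was not tested. *Fbln5*, the gene of fibulin 5, which assembles elastic fibers (chromosome 12, 101746565 to 101819055), lay at 15.2 CPM (10.8 to 20.7) in PBS cells with an arterial sum of 0 and at 311 (279.6 to 344) in those with 10 or more. In the CFA library the same ends were 7.75 (4.67 to 12.1) and 588 (535 to 644). Between these ends it passed 90.7 and 132 CPM in PBS and 121 and 256 in CFA for sums of 3 to 4 and 5 to 9. *Gja4*, the gene of connexin 37, went from 12.1 to 198 CPM in PBS and from 11.8 to 391 in CFA. *Nebl*, which encodes the actin-binding protein nebulette, went from 12.8 to 347 and from 13.5 to 741. The capillary gene *Car4*, a carbonic anhydrase on the cell surface, went the other way, from 331 (309 to 354) to 73.4 (58.8 to 90.6) CPM in PBS and from 283 (262 to 305) to 7.67 (2.81 to 16.7) in CFA. *Gpihbp1*, which carries lipoprotein lipase across capillary endothelium, went from 848 to 468 and from 859 to 207. *Efnb2*, the gene of the arterial ephrin B2, did not follow the sum, with 198, 324 and 290.3 CPM at sums of 0, 3 to 4 and 10 or more in PBS and 279, 576 and 337 in CFA.

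For some genes outside the rule, cells at the threshold had levels like those just outside it, and for others they did not. The 57 PBS cells with a sum of 2 held 22.9 CPM of *Fbln5*, against 35.9 in the 132 cells with a sum of 1. In the CFA library the 68 cells with a sum of 2 held 16.3, against 19.8 in the 159 cells with a sum of 1. The *Fbln5* intervals overlapped in both libraries. *Gpihbp1*, a capillary gene, differed in PBS. Its level was 844 CPM (767 to 927) at a sum of 2 and 1128 (1064 to 1195) at a sum of 1. In CFA its intervals overlapped, with 887 (793 to 989) against 788 (726 to 854). *Mgp* differed in PBS as well, with 262 (219.7 to 309) against 425 (386 to 467), and its CFA intervals overlapped. *Col8a1*, which encodes a chain of type VIII collagen, differed at the threshold in both libraries. It had 55.4 CPM (37.1 to 79.5) at a sum of 2 against 7.77 (3.35 to 15.3) at a sum of 1 in PBS. In CFA it had 57.1 (35.4 to 87.4) against 13.2 (6.33 to 24.3). *Nebl* had 49.0 (29.0 to 77.4) against 11.9 (5.43 to 22.6) in CFA, and 11.5 against 6.80 in PBS, where the intervals overlapped.

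**Figure D1:**
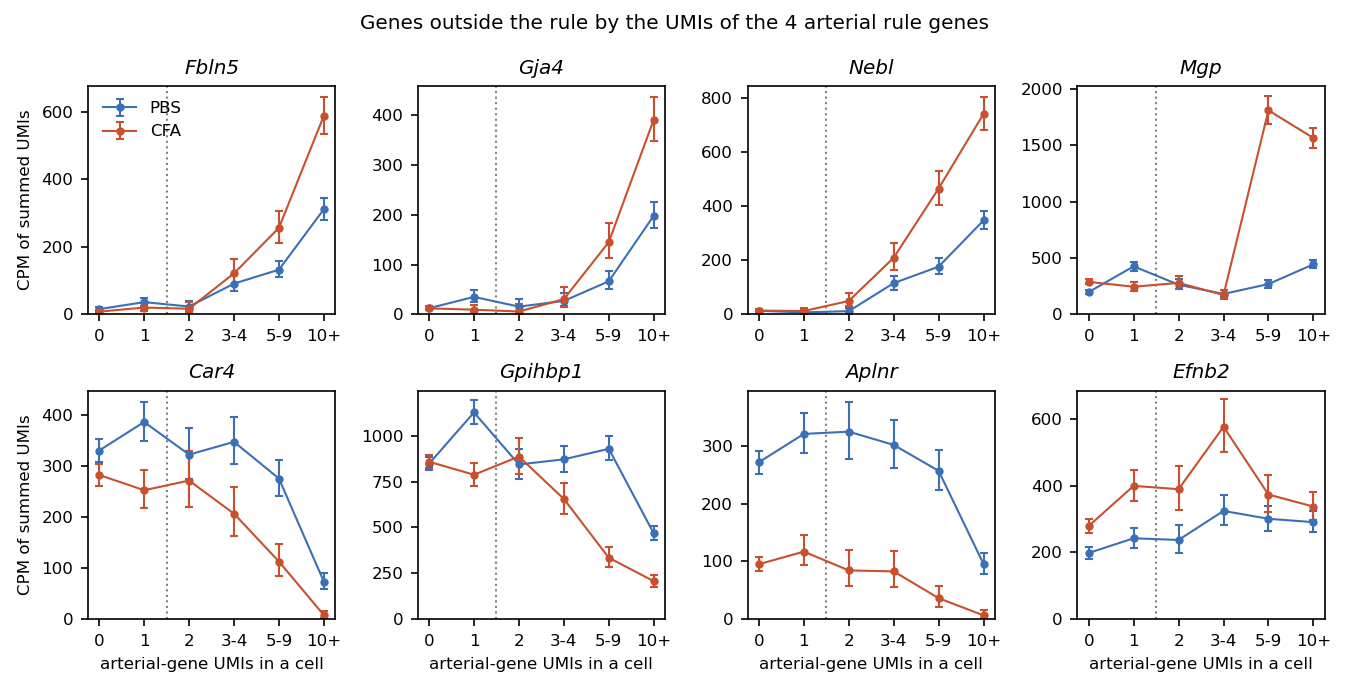
CPM of 8 genes that the rule did not use, summed over endothelial cells of the PBS (blue) and CFA (red) libraries grouped by their arterial sum, with 95% Poisson intervals and linear axes that start at 0. Cells right of the dotted line (2 or more UMIs) are arterial. Depth rises with the sum in both libraries, and mixed droplets are included. *Fbln5*, *Gja4* and *Nebl* climb with the sum in both libraries, *Car4* and *Gpihbp1* are lowest at 10 or more, and *Mgp* stands at 1809 and 1564 CPM in the CFA cells with 5 or more.

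The label was checked on 26 arterial genes that the rule did not use, of which 25 had enough UMIs to compare with capillary cells. Capillary cells (384 PBS and 535 CFA) are endothelial cells with under 3 venular UMIs, an arterial sum under 2 and at least 2 UMIs of *Car4* and *Gpihbp1* together. In both libraries 13 of the 25 were at least 2-fold higher in arterial cells and 23 were higher at all, against 4.09% of the 10523 genes compared that were at least 2-fold higher in both. Since cells were sorted on transcripts of the same cells, these ratios describe the class and are not a test. *Gja4* stood at 98.2 CPM in PBS and 195 in CFA arterial cells, 10.0-fold (6.76 to 15.5) and 57.4-fold (28.8 to 134) over capillary cells. *Fbln5*, at 171 and 318 CPM, was 13.1-fold (9.36 to 18.9) and 149.5-fold (63.7 to 462) higher. *Bmx*, a tyrosine kinase of arterial endothelium, was 5.91-fold and 53.8-fold higher, and *Clu*, which encodes the secreted chaperone clusterin, 29.8-fold and 24.8-fold. *Jag1*, a Notch ligand, was 3.06-fold and 4.96-fold higher, *Vegfc*, a growth factor for lymphatic vessels, 3.65-fold and 6.13-fold, and *Edn1*, the precursor of the vasoconstrictor endothelin 1, 5.55-fold and 5.64-fold. Not all of these genes set arterial cells apart from venular cells, which hold 3 or more venular UMIs. *Clu* was 0.706 (0.587 to 0.851) of the venular level in PBS and 1.75-fold in CFA, and *Mgp* 0.324 and 1.80-fold. *Gja4* (1.98-fold and 1.79-fold) and *Fbln5* (3.12-fold and 2.78-fold) were above the venular level in both libraries.

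Other arterial genes were shared with capillary cells. *Dll4*, the Notch ligand of arteries and of sprouting capillaries, was 1.14-fold (0.983 to 1.33) and 1.05-fold (0.879 to 1.26) higher. *Efnb2* was 1.30-fold and 1.20-fold, and the chemokine gene *Cxcl12* 1.30-fold and 1.01-fold (0.942 to 1.09). *Sox17*, a transcription factor of arterial identity, was 1.77-fold and 2.43-fold higher. *Nrp1*, a receptor of semaphorins and VEGF, was lower in arterial cells in both libraries, at 0.756 and 0.664 of the capillary level. *Hey2* had 9 and 10 UMIs and was not compared. The 12 capillary genes, of which *Car4* and *Gpihbp1* had chosen the capillary cells, were all lower in arterial cells in both libraries, with *Car4*, the water channel gene *Aqp1* and the protease inhibitor gene *Timp4* at least 2-fold lower, against 0.827% of all genes compared.

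Genes outside the rule were ranked by the lower interval bound of the arterial to capillary ratio, taken from the library where that bound was lower. The leading genes were *Col8a1*, *Clu* and *Chrm3*. *Col8a1* stood at 196 and 235 CPM, 41.6-fold and 92.2-fold over capillary cells. Cells with no UMI of the endothelial genes of the rule held 279 CPM of it in PBS and 56.1 in CFA, so in PBS the arterial level was below theirs. *Chrm3*, the M3 receptor for acetylcholine, stood at 157 and 182 CPM, 19.7-fold (12.8 to 31.6) and 53.4-fold (26.8 to 125). *Nebl* (16.2-fold and 132-fold), *Slc45a4* (13.8-fold and 17.3-fold), *Tox2* (11.7-fold and 22.9-fold) and the lipoxygenase gene *Alox12* (10.1-fold and 20.2-fold) were further leading genes, and *Gkn3* (83 and 37 UMIs) and *Trpm6* (33 and 29 UMIs) had no UMI in capillary cells of either library. *Gpc5* and the lymphatic chemokine gene *Ccl21a* ranked among the first 15 as well, but *Gpc5* UMIs came from 3 PBS and 2 CFA droplets and *Ccl21a* UMIs from 7 and 1. *Gpc5*, *Ccl21a* and *Gm13052* had no UMI once the mixed droplets described next were left out.

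**Figure D2:**
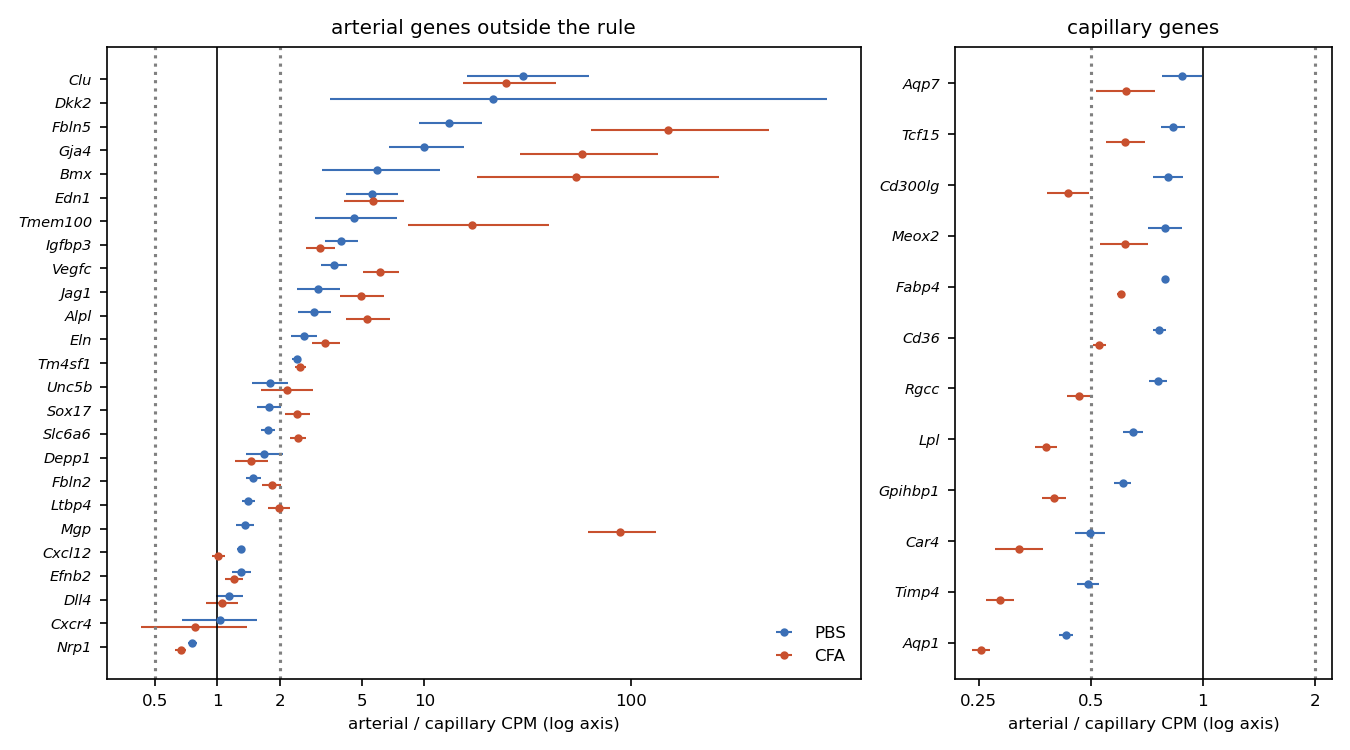
Ratio of arterial to capillary CPM (log axes) for 25 arterial genes that the rule did not use (left) and 12 capillary genes (right), in PBS (blue) and CFA (red), with 95% intervals from the exact binomial. Dotted lines mark 2-fold. *Dkk2* has no CFA point because capillary cells held none of its UMIs. Most arterial genes lie right of 1 in both libraries, and every capillary gene lies left of it.

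Some droplets chosen by the rule also carried transcripts of other cell types. A droplet was called mixed when it held at least 10 UMIs of any of 11 marker lists of other types, a definition set after seeing the data. There were 66 such droplets among the PBS arterial cells (23.2%) and 29 among the CFA arterial cells (10.9%), against 9.11% and 2.99% of capillary cells. The cut of 10 UMIs was the same at every depth, and the part of depth in these shares was not tested. The 9 mural markers (*Acta2*, *Myh11* and others of smooth muscle and pericytes) summed to 2879 CPM in PBS and 1622 in CFA arterial cells, and 98.4% and 98.7% of these UMIs sat in 40 and 19 droplets. Fibroblast markers summed to 3325 and 1194 CPM, Schwann cell markers to 530.3 and 96.4, and lymphatic endothelial markers to 646 and 133. Neutrophil markers (93.9 and 272 CPM) and macrophage markers (11.2 and 260.4) were spread over many droplets instead, with medians per droplet of 66.5 and 282 CPM and of 0 and 242 CPM. Every gene of these 6 lists was detected in both libraries. Osteoblast markers summed to 467 and 484 CPM, chondrocyte markers to 45.2 and 25.7, muscle fiber markers to 10.5 and 1.51, and neuronal markers to 0.310 and 240.2, the last nearly all in 1 droplet. The osteoblast sum includes *Alpl*, itself an arterial gene outside the rule, found in 50.9% of PBS and 48.3% of CFA arterial cells. *Alpl*, and *Flt4* of the lymphatic list, were not counted when droplets were called mixed. Lymphocyte markers were near 0 (4.34 and 2.52 CPM), with *Cd3d* at 0 in both libraries. Erythroid markers summed to 837 and 340.1 CPM, and 122 PBS and 2 CFA arterial cells held 10 or more of their UMIs. The erythroid list was not used when droplets were called mixed. The part of these transcripts in the results below was not tested, and values are also given without mixed droplets, which left 219 PBS and 236 CFA cells.

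Of PBS endothelial cells 31.9% (28.9 to 35.1%) were arterial, against 21.9% (19.6 to 24.3%) of CFA endothelial cells, a CFA to PBS ratio of 0.686. Without mixed droplets the shares were 30.6% and 21.4%. The ratio did not hold when cells of the libraries were brought to one depth. PBS arterial cells held a median of 9265 UMIs and CFA arterial cells 5284, and with every cell thinned at random to 2000 UMIs before the rule was applied, the shares were 15.5% (13.1 to 18.2%) and 16.1% (13.9 to 18.5%). With no hemoglobin limit they were 21.0% and 21.7%, since the PBS endothelial cells within the other limits then numbered 1893 in place of 893. Without *Stmn2* in the arterial sum they were 17.9% and 16.0%. With thinning, with no hemoglobin limit and without *Stmn2* the intervals overlapped, so these settings gave no order of the libraries in the arterial share. After thinning, 792 PBS and 1001 CFA cells counted as endothelial, in place of 893 and 1210. The part of depth itself in the arterial share was not tested.

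**Figure D3:**
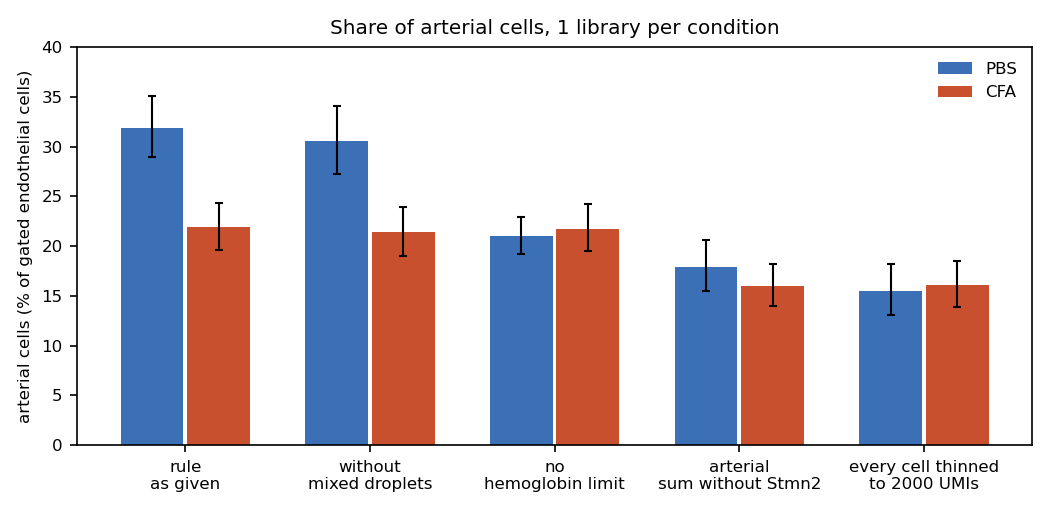
Arterial cells as a percent of gated endothelial cells in the PBS (blue) and CFA (red) library, by the rule and under 4 changes to it, with exact binomial 95% intervals. The libraries differ by the rule and without mixed droplets (31.9% and 21.9%, 30.6% and 21.4%), and the intervals overlap under the other 3 changes.

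Expression in CFA arterial cells was then set against that in PBS arterial cells. Of the 11518 genes with at least 20 UMIs over both libraries, 700 (6.08%) were at least 2-fold higher and 689 (5.98%) at least 2-fold lower in CFA, with a median log2 ratio of 0.01. Without mixed droplets 552 (5.65%) were higher and 483 (4.95%) lower of the 9765 genes that still had at least 20 UMIs. List counts without mixed droplets below keep the genes compared above, also where fewer than 20 UMIs were left, and on that footing the shares over all genes were 8.09% and 8.12% of 11349. The genes at the ends of the ranking came from few droplets. Of the 12 genes ranked highest by the interval bound nearest to 1, 11 had at least 80% of their UMIs in 1 CFA droplet. For *Fgf14* this droplet held 228 of 235 UMIs, and it contained 63066 UMIs in all, 473 UMIs of a list of neuronal genes, 107 UMIs of *Stmn2* and 4 UMIs of the endothelial genes. For the chemokine gene *Cxcl5* it was another droplet, with 164 of 165 UMIs, 1212 UMIs of fibroblast markers and 458 of *Saa3*. The exception was *Gbp2b*. Of the 12 lowest genes, 11 had at least 80% of their PBS UMIs in mixed droplets, the lymphatic genes *Prox1*, *Lyve1* and *Mmrn1* among them, and the exception was *Slc14a1*.

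Without mixed droplets the ranking rested on many cells for most genes. Guanylate-binding protein genes, which interferons induce and which act against intracellular microbes, stood first. Values in this paragraph are over all arterial cells unless stated. *Gbp2b* had no UMI in PBS arterial cells and 136 UMIs in 45 CFA cells, at least 73.8-fold higher against a floor of 3 counts per library. Without mixed droplets it had 120 UMIs in 43 CFA cells, at least 50.7-fold higher. *Gbp10* had 0 and 45 UMIs, at least 24.4-fold higher, and without mixed droplets 41 CFA UMIs, at least 17.3-fold higher. *Serpina1b*, a gene of the protease inhibitor alpha 1 antitrypsin, had 1 UMI in PBS and 58 UMIs (29.3 CPM) in 24 CFA cells. Of its CFA UMIs 52 in 20 cells remained without mixed droplets. *Fkbp5*, a cochaperone of steroid hormone receptors (chromosome 17, 28399094 to 28517527), went from 18.0 to 152 CPM, a ratio of 8.48 (6.38 to 11.4) that was 12.7 (8.46 to 19.8) without mixed droplets. *Fam107a*, an actin-associated gene, had 11.5 and 76.7 CPM (6.69, 4.64 to 9.86), *Hspa1b*, an inducible Hsp70 that shares most of its sequence with *Hspa1a*, 39.0 and 234 CPM (6.00, 4.91 to 7.36), and *Tmem252* 25.7 and 176 CPM (6.85, 5.37 to 8.81).

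Capillary cells showed like ratios for *Fkbp5* (8.39), *Fam107a* (7.58) and *Hspa1b* (5.58), and a ratio of 2.70 for *Tmem252*. *Zbtb16*, a zinc finger repressor outside the ranking and chosen after its values were seen, stood at 242 CPM in PBS and 1077 in CFA arterial cells (4.45, 4.10 to 4.83) and was found in 208 and 250 cells. The rise was not particular to arterial cells. In capillary cells *Zbtb16* had 314 and 1776 CPM (5.66, 5.26 to 6.10), and in venular cells a ratio of 3.27 (2.63 to 4.12). After thinning to 2000 UMIs, 37.9% of PBS and 84.5% of CFA arterial cells held a *Zbtb16* UMI, against 18.8% and 29.2% of marker-free cells. Marker-free cells hold no UMI of *Pecam1*, *Cdh5*, *Kdr* or *Flt1*, have no *Ptprc* limit and held medians of 7774 and 8052 UMIs before thinning. Of them 88.9% and 89.2% held at least 10 UMIs of a marker list of another cell type. For *Fkbp5* the thinned shares were 2.84% and 24.7%, against 6.91% and 22.9% of marker-free cells. Since most marker-free cells are of other types, this comparison cannot show whether the *Fkbp5* UMIs are the arterial cells' own.

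Among genes lower in CFA, *Aplnr*, the receptor of apelin (chromosome 2, 85136225 to 85139923), went from 218 to 41.9 CPM, a ratio of 0.192 (0.151 to 0.242), and from 135 to 42 cells. Capillary cells had a ratio of 0.327 and venular cells of 1.12. *Cyp26b1*, which degrades retinoic acid, went from 105 to 21.2 CPM (0.201, 0.142 to 0.278), *Adora2a*, a receptor for adenosine, from 21.1 to 4.04 CPM (0.192, 0.0795 to 0.399), and *Col15a1*, a basement membrane collagen, from 199.9 to 53.0 CPM (0.265, 0.214 to 0.326). The *Col15a1* ratio turned to 1.91 (0.551 to 8.34) with cells thinned to 2000 UMIs before the rule. With cells as the rule took them, these 4 ratios moved to between 0.144 and 0.212 without mixed droplets. *Kirrel3* (130.2 and 36.3 CPM) had 105 of its 420 PBS UMIs in 1 droplet. *Slc14a1*, a urea transporter, had 44 UMIs in 3 PBS cells and 0 in CFA, at least 9.01-fold lower against the floor. *Nav3* and *Rab6b* passed the ranking only without mixed droplets, with ratios of 0.175 and 0.0845, and had 1.19 and 0.670 with them.

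Many interferon-induced genes stood higher in CFA arterial cells, and others did not. Of 32 members compared, 11 were at least 2-fold higher (34.4%, against 6.08% of all genes) and 0 lower, with a median log2 ratio of 0.74 against 0.01 over all genes, and without mixed droplets 9 were higher and 1 lower, with a median of 0.62. *Gbp4* (chromosome 5, 105115767 to 105139586) led the list, with 77.5 CPM in PBS and 546 in CFA, a ratio of 7.05 (6.14 to 8.12), and with UMIs in 128 and 202 cells. *Igtp*, an interferon-inducible GTPase, followed with 42.1 and 193 CPM (4.59, 3.76 to 5.62), *Gbp5* with 47.1 and 179 (3.80, 3.14 to 4.63) and *Gbp2* with 124 and 381 (3.07, 2.72 to 3.48). *Cd274*, which encodes the immune checkpoint ligand PD-L1, had 48.0 and 140.3 CPM. Other members lay at or below the PBS level, with *Irf1* at 754 and 557 CPM (0.738), *Isg15* at 329 and 229 (0.696), *Ifit3* at 63.8 and 58.0 (0.909) and *Cxcl10* at 18.6 and 9.59 (0.516). In capillary cells *Gbp4* had a ratio of 10.2 and in venular cells of 6.27. Of 32 members compared in each of these classes, 16 were at least 2-fold higher and 1 lower in capillary cells, with a median of 0.97. In venular cells 15 were higher and 0 lower, with a median of 0.91. Over all genes 471 of 10683 and 470 of 10417 were higher there. After thinning, 14.9% of PBS and 53.4% of CFA arterial cells held a *Gbp4* UMI, against 0.0804% and 5.67% of marker-free cells.

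Promoters of 4 genes of the interferon response are shown, because these genes were among those at least 2-fold higher in CFA. Each run holds the 250 bases before the transcription start in RefSeq (GRCm38.p6), 5′ to 3′ on the strand of the gene, and capitals mark matches to either of 2 motifs. The first, called the GAAA pair here, is GAAA, then any 2 bases (NN), then GAAA, a form of the element read by interferon regulatory factors. The second is TTCNNNGAA, a form of the gamma-activated site.
Gbp2b, chr3:142594597-142594846, plus strand: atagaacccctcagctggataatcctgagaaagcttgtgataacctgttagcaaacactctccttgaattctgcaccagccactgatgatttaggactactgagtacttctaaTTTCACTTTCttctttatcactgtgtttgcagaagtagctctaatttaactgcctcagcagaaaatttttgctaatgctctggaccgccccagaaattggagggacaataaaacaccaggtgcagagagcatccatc
Gbp5, chr3:142496684-142496933, plus strand: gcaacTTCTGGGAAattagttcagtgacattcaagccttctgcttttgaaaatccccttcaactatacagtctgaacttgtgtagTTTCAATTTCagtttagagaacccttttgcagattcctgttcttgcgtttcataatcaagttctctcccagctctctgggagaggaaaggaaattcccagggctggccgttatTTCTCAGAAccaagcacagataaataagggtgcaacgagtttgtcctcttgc
Igtp, chr11:58199306-58199555, plus strand: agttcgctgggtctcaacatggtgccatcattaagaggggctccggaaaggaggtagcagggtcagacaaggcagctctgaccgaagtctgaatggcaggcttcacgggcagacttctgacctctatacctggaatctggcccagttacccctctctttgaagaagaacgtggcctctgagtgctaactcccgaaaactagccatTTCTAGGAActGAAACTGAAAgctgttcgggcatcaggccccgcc
Tgtp2, chr11:49064213-49064462, minus strand: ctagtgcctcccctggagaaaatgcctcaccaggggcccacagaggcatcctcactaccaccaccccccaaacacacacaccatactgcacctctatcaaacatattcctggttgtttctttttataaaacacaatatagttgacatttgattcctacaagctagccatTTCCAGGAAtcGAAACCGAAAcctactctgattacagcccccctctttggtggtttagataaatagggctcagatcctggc
Both strands were searched, the GAAA pair reads as TTTC, NN, TTTC on the other strand, and TTCNNNGAA reads the same on either. In these 4 promoters no match of one motif overlapped a match of the other. The GAAA pair was found in 2.98% and TTCNNNGAA in 7.02% of all 32851 promoters of the table, or in 3.46% and 8.13% of its 27025 genes. Of the 11 interferon-induced genes at least 2-fold higher in CFA, 8 had a promoter there, and 6 held the first and 6 the second motif. Of the other 21 compared, 16 had a promoter, and 10 held the first and 4 the second. Of the 12 antigen presentation genes at least 2-fold higher, 7 had a promoter, and 2 held the first and 0 the second. In *Igtp* the motifs start 45 and 34 bases before the start site, and in *Tgtp2* 81 and 70 bases before it. A match is a description of the letters and not evidence of binding.

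Genes of antigen presentation were the list with the most members past 2-fold. Of 20 compared, 12 were at least 2-fold higher in CFA (60.0%, against 6.08% of all genes) and 0 lower, with a median of 1.07, and without mixed droplets 11 were higher, with a median of 1.05. The rise was not particular to arterial cells. In capillary cells 13 of 19 were at least 2-fold higher, with a median of 1.31, and in venular cells 15 of 20, with 1.44. Over all genes 471 of 10683 and 470 of 10417 were higher in these classes. The 12 higher in arterial cells include the class II genes *Cd74*, *H2-Aa*, *H2-Ab1* and *H2-Eb1* and their activator *Ciita*, and 6 of the 20 stood under the level of marker-free cells. Among class I genes *H2-Q7* (chromosome 17, 35439155 to 35443773) had 28.8 CPM in PBS and 234 in CFA (8.12, 6.49 to 10.3), and *H2-Q6* 17.7 and 120.1 (6.80, 5.07 to 9.24). The *H2-Q* genes are near-identical copies whose reads the counting could split, so their separate values are uncertain. *Nlrc5*, the activator of class I genes, had 31.9 and 109 CPM (3.41), *B2m*, their invariant light chain, 611 and 1248 (2.04, 1.93 to 2.17), and *H2-K1* 1021 and 1793 (1.76, 1.67 to 1.84). Class II genes were set beside their level in marker-free cells. *Cd74*, the invariant chain, had no UMI in PBS arterial cells and 302 UMIs (152 CPM) in 78 CFA cells, at least 164-fold higher, while CFA marker-free cells held 1931 CPM. With no hemoglobin limit, which adds PBS cells, the *Cd74* ratio was 41.7 (24.5 to 77.1). A *Cd74* UMI was found in 17.5% of thinned CFA arterial cells and in 28.2% of thinned CFA marker-free cells. The arterial share is not read as expression, since a comparison with cells of other types cannot tell where these UMIs came from. Per UMI of the macrophage gene *Lyz2*, CFA arterial cells held 0.654 *Cd74* UMIs, capillary cells 0.283 and marker-free cells 0.226. Per *Lyz2* UMI, CFA venular cells held more *Cd74* than any of these, with 4244 *Cd74* UMIs (1473 CPM) and 355 *Lyz2* UMIs. What these ratios say about the origin of the *Cd74* UMIs was not tested. *Lyz2* itself had 10 UMIs in PBS and 462 in CFA arterial cells, and its part in these results was not tested.

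**Figure D4:**
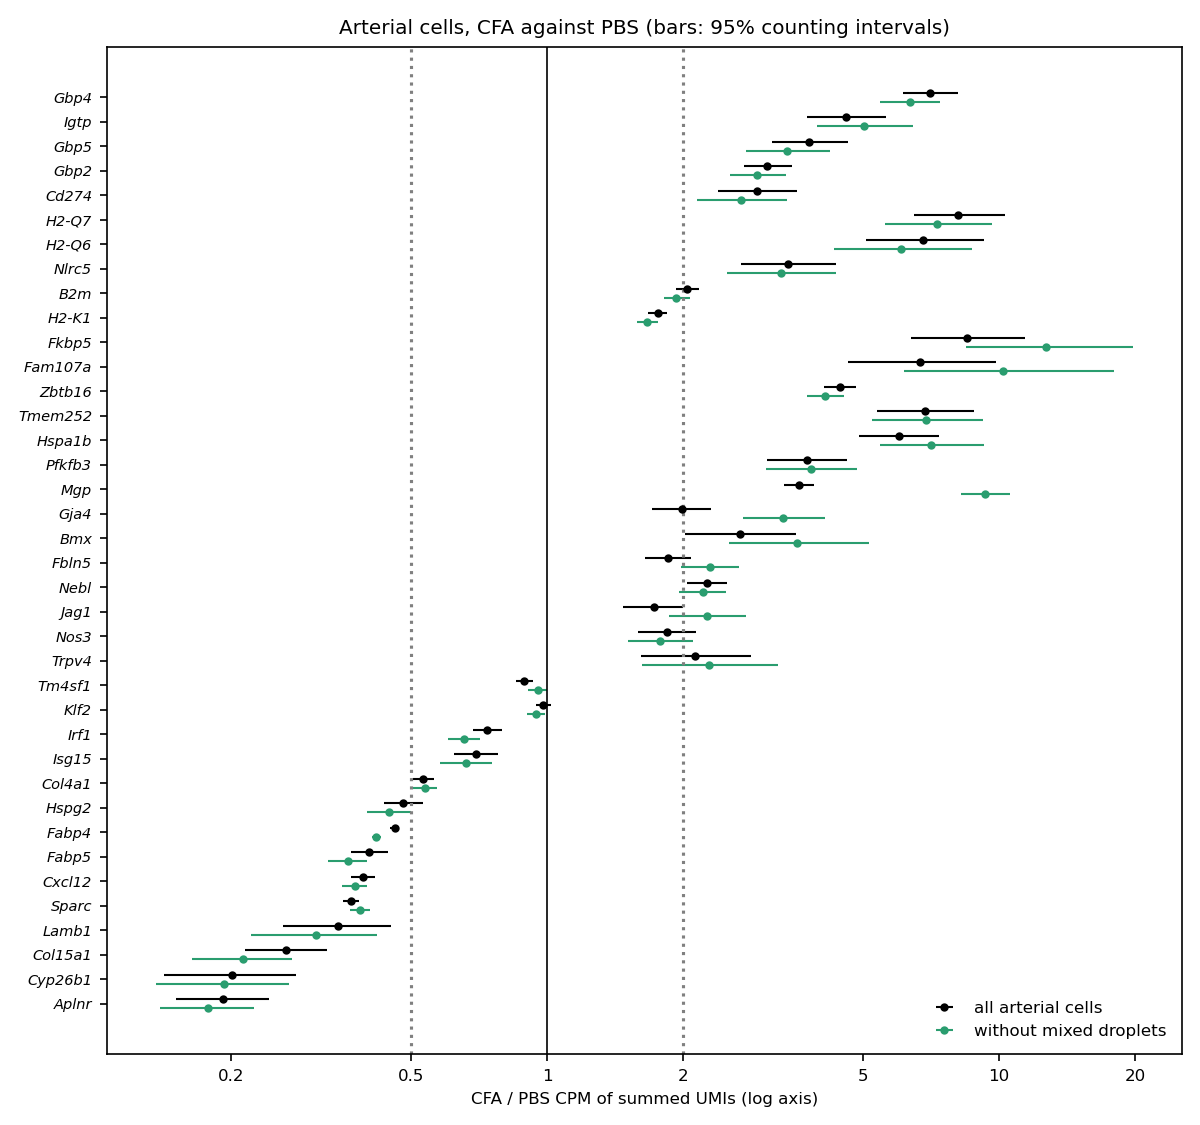
CFA to PBS ratio of CPM in arterial cells (log axis) for 38 genes named in the text or their lists, over all arterial cells (black) and without mixed droplets (green), with 95% intervals from the exact binomial. Dotted lines mark 2-fold. *Gbp4* and *H2-Q7* lie right of 5 and *Aplnr* and *Cyp26b1* near 0.2 in both sets, while *Mgp* goes from 3.60 to 9.33.

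Most arterial genes outside the rule lay within 2-fold between the libraries. Of 25 compared, 3 were at least 2-fold higher (against 6.08% of all genes) and 1 lower (4.00%, against 5.98%), with a median of 0.45, and without mixed droplets 8 were higher (32.0%, against 8.09%) and 1 lower, with a median of 0.42. *Gja4* had 98.2 and 195 CPM, a ratio of 1.99 (1.71 to 2.31) that was 3.33 (2.71 to 4.11) without mixed droplets. *Bmx* had 25.7 and 68.6 CPM (2.67, 2.02 to 3.55), *Fbln5* 171 and 318 (1.85, 1.65 to 2.08), *Jag1* 102 and 175 (1.72) and *Nebl*, outside the list, 199 and 450.1 (2.26, 2.04 to 2.50). Others were level, such as *Tm4sf1* with 1718 and 1529.9 CPM (0.890), *Vegfc* with 307 and 318 (1.04), *Edn1* with 117 and 108 (0.924) and *Dll4* with 126 and 117 (0.922). These ratios moved with the depth at which cells entered the class. With cells thinned to 2000 UMIs before the rule, they were 1.62 for *Gja4*, 1.51 for *Fbln5*, 1.16 for *Jag1* and 1.15 for *Nebl*, and the median of the list was 0.21. The share of cells that entered on *Stmn2* alone, given above, differed between the libraries, and its part in these ratios was not tested.

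*Mgp*, the gene of matrix Gla protein, an inhibitor of calcification that arterial walls express (chromosome 6, 136872435 to 136875823), had the highest ratio of the arterial list. It had 1010 UMIs (313 CPM) in PBS and 2236 UMIs (1128 CPM) in CFA arterial cells, a ratio of 3.60 (3.34 to 3.89). Without mixed droplets the levels were 141 and 1318 CPM and the ratio 9.33 (8.22 to 10.6), and with cells thinned before the rule it was 5.75. The UMIs came from 64 PBS and 68 CFA cells, and the highest cells held 109 and 300. By arterial sum the PBS levels were 262, 180.0, 268 and 443 CPM for sums of 2, 3 to 4, 5 to 9 and 10 or more, and the CFA levels 278, 171, 1809 and 1564. In capillary cells *Mgp* had 636 UMIs (231 CPM) in PBS and 30 UMIs (12.8 CPM) in CFA, but 270 of the PBS UMIs came from 1 droplet. Without mixed droplets the capillary levels were 21.3 and 11.2 CPM, a ratio of 0.524 (0.306 to 0.874). Marker-free cells held 1657 and 854 CPM, so the arterial level was below theirs in PBS and above it in CFA. In PBS the share of arterial cells with an *Mgp* UMI (22.5%) was below that of marker-free cells (42.4%). In CFA the arterial share was 25.7% (20.5 to 31.4%), an interval that holds the marker-free share of 26.9%. These shares are as counted and were not brought to one depth.

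*Cxcl12*, a chemokine that arterial endothelium secretes (chromosome 6, 117168535 to 117181367), was the arterial gene at least 2-fold lower. Its level was 1758 CPM in PBS and 689.8 in CFA, a ratio of 0.392 (0.369 to 0.416), and 0.354 with cells thinned before the rule. UMIs of it were found in 268 PBS cells and 205 CFA cells. Capillary cells had 1348 and 681 CPM (0.505), and venular cells a ratio of 0.566, so the gene was lower in all 3 endothelial classes.

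Most capillary genes within arterial cells lay within 2-fold. Of 12 compared, 2 were at least 2-fold lower (16.7%, against 5.98% of all genes) and 0 higher, with a median of -0.68, and without mixed droplets 3 were lower, with a median of -0.80. *Fabp4*, a fatty acid carrier and the most abundant gene named here (chromosome 3, 10204088 to 10208576), had 11989 and 5510.1 CPM, a ratio of 0.460 (0.450 to 0.469). *Tcf15*, a transcription factor of fatty acid transport in the capillary endothelium of muscle and heart, had 425 and 206 (0.485), *Car4* 224 and 118 (0.527) and *Gpihbp1* 734 and 446 (0.607). *Cd36*, a fatty acid receptor, had 1413 and 1629.8 CPM (1.15) and *Lpl*, lipoprotein lipase, 525 and 575 (1.10), while both were higher in CFA capillary cells (1.67 and 1.87). Of the 8 fatty acid genes, 2 were at least 2-fold lower (against 5.98% of all genes), *Fabp4* and *Fabp5* (691 and 279.5 CPM), and 0 higher, with a median of -0.24.

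Genes of the matrix under the endothelium went both ways. Of 20 elastic fiber and basement membrane genes, 1 was at least 2-fold higher (*Mgp*) and 3 lower, against 6.08% and 5.98% of all genes, with a median of -0.35. Without mixed droplets 4 were higher (*Eln*, *Fbln5*, *Mgp* and *Bgn*) and 3 lower, against 8.09% and 8.12% of all genes, with a median of -0.29. Among elastic fiber genes *Eln*, elastin, had 225 and 319 CPM (1.42, and 2.40 without mixed droplets), while *Ltbp4*, which guides elastin onto microfibrils, had 602 and 363 (0.603). Among basement membrane genes *Lamb1*, a laminin chain, had 97.9 and 33.8 CPM (0.345, 0.261 to 0.451), *Hspg2*, perlecan, 536 and 258 (0.481, 0.435 to 0.531), *Col4a1* 1578 and 840.1 (0.532) and *Col4a2* 996 and 585 (0.587). *Sparc*, a collagen-binding protein, had 3893 and 1434 CPM (0.368), but fibroblasts express it as well and CFA marker-free cells held 5209.9. With cells thinned before the rule the ratios of *Lamb1* and *Hspg2* were 0.643 and 0.64.

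Notch genes passed 2-fold at a share near that of all genes. Of 13 compared, 1 was at least 2-fold higher (7.69%, against 6.08%), *Lfng* with 16 and 20 UMIs, and 0 lower, with a median of 0.10, and without mixed droplets 1 was higher and 1 lower. The receptor *Notch1* had 208 and 346 CPM (1.66, 1.49 to 1.85), *Notch4* 76.2 and 113 (1.48), and the ligand *Jag2* 85.8 and 143 (1.66), while the target genes *Hes1* (199 and 166, 0.831) and *Nrarp* (53.6 and 57.5, 1.07) were close to level. Of the 14 vasoactive and flow-responsive genes, 2 were at least 2-fold higher (14.3%, against 6.08% of all genes) and 0 lower, with a median of 0.20. These were the calcium channel gene *Trpv4* (28.5 and 60.6 CPM, 2.12) and the potassium channel gene *Kcnn3* (14.3 and 30.8 CPM, 2.16). Without mixed droplets 4 were higher (28.6%, against 8.09%), and the 2 added, *Ptgis* and *Kcnj2*, had under 20 UMIs left. *Nos3*, the endothelial nitric oxide synthase (chromosome 5, 24364810 to 24384474), had 112 and 205 CPM (1.84, 1.59 to 2.13). *Klf2*, which laminar flow induces, was level at 2106 and 2066 CPM (0.981, 0.944 to 1.02), and *Klf4* stood at 1034 and 1137 (1.10).

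Guidance, junction and growth factor genes mostly lay within 2-fold. These lists, like the Notch and adhesion lists, count genes of the rule among their members, of which *Gja5* passed 2-fold. Of 14 guidance genes, 2 were higher (14.3%, against 6.08% of all genes), *Sema3f* (12.1 and 40.9 CPM, 3.38) and *Sema7a* (101 and 224 CPM, 2.22), with a median of 0.05. Of 11 junction genes, 1 was higher (9.09%), *Gja5*, itself a gene of the rule, with a median of 0.25. Without mixed droplets 3 were higher (27.3%, against 8.09% of all genes), with *Gja4* (3.33) and *Cgnl1* (2.04). The tight junction gene *Cldn5* had 490 and 458 CPM (0.934) and *Tjp1* 386 and 486 (1.26). Of 18 genes of VEGF, angiopoietin, BMP and TGF-beta signaling, 1 was lower (5.56%, against 5.98% of all genes), *Angpt2* (24.2 and 11.6 CPM, 0.480), with a median of 0.03. In this list *Id1* (875 and 536 CPM, 0.613) and *Id3* (1017 and 650.4, 0.639), which BMP signaling induces, were lower, and *Bmp6* (233 and 446, 1.91) and the inhibitor *Smad6* (46.8 and 88.3, 1.89) were higher, none past 2-fold.

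Some genes of vessel sprouting stood lower in CFA arterial cells. Of 9 compared, 3 were at least 2-fold lower (33.3%, against 5.98% of all genes) and 0 higher, with a median of -0.62. *Esm1* went from 64 to 6 UMIs (0.153, 0.0540 to 0.351), *Adm*, adrenomedullin, from 56 to 8 UMIs (0.233) and *Angpt2* from 78 to 23. Cell cycle genes were rare, with 8 of 13 compared, 1 lower (12.5%, against 5.98% of all genes) and a median of -0.57, and 7 of the 8 stood under the level of marker-free cells. Without mixed droplets 3 were lower (37.5%, against 8.12%), with a median of -0.90. *Mki67*, which marks cycling cells, had 46 UMIs in 19 PBS cells and 4 UMIs in 4 CFA cells (0.142, 0.0370 to 0.388), and *Top2a* 28 and 10.

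Leukocyte adhesion and chemokine genes passed 2-fold at shares near those of all genes. Of 18 compared, 1 was at least 2-fold higher, *Ccl7* with 11 and 25 UMIs, and 1 lower, *Cxcl12* (5.56% each, against 6.08% and 5.98%), with a median of -0.10. Without mixed droplets 1 was higher and 3 were lower (16.7%, against 8.12%), with a median of 0.02. *Icam1*, a ligand of leukocyte integrins, had 189 and 95.9 CPM (0.506, 0.428 to 0.597), *Vcam1* 26.7 and 38.9 (1.46), and *Cxcl1* 104 and 78.7 (0.760, and 0.245 without mixed droplets). *Sele*, *Selp* and *Csf3* had too few UMIs to compare. Venular genes in arterial cells were compared for 9 genes, among them *Plvap*, which the rule capped, with a median of 0.31. Of these, 1 was higher (11.1%, against 6.08% of all genes), *Lrg1* with 20 and 65 UMIs. Another 3 were lower (33.3%, against 5.98%), *Aplnr*, *Cysltr1* and *Nr2f2*, the last a venous transcription factor at 156 and 58.0 CPM. Of 10 acute-phase and complement genes, 6 were higher (60.0%, against 6.08% of all genes) with a median of 1.77, but all 10 stood under the level of marker-free cells, and 458 of the 485 *Saa3* UMIs came from the fibroblast-rich droplet described above.

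Most immediate early genes, which dissociation can induce, lay within 2-fold. Of 22 immediate early and stress genes, 3 (13.6%, against 6.08% of all genes) were at least 2-fold higher (*Hspa1b*, *Hspa1a* with 76.5 and 281 CPM, and *Mt2*) and 0 lower, with a median of -0.32. *Fos* had 2696 and 2190.4 CPM (0.813), *Junb* 1795 and 1271 (0.708) and *Ier2* 954 and 583 (0.611). Of 12 glycolysis and hypoxia genes, 2 were higher (16.7%, against 6.08% of all genes), *Pfkfb3*, a regulator of glycolytic rate (43.4 and 163 CPM, 3.76, 3.07 to 4.61), and *Ddit4* (62.9 and 131, 2.08), with a median of 0.01, while the enzyme genes *Eno1* (0.687) and *Ldha* (0.793) were lower.

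**Figure D5:**
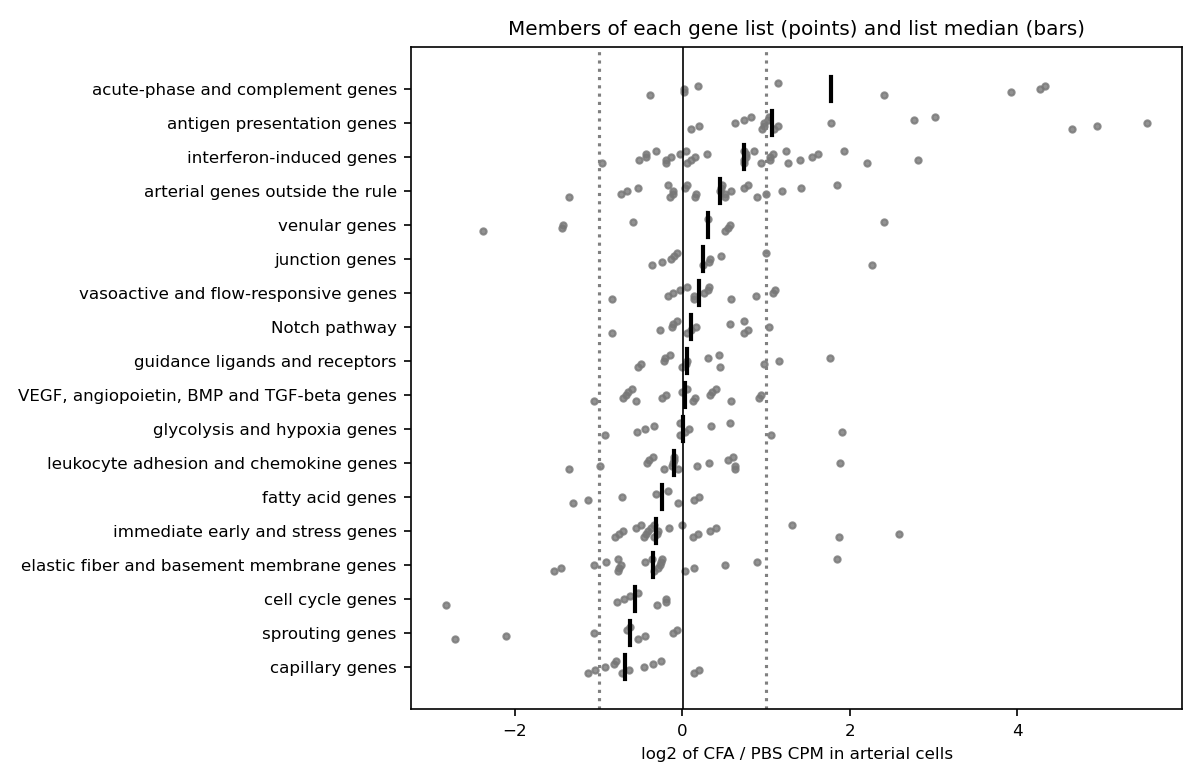
Log2 CFA to PBS ratio in arterial cells of each compared gene of 18 lists (points) and the median of each list (bars), where 0 is no difference and dotted lines mark 2-fold. Genes with no UMI in 1 library have no point. Medians run from -0.68 for capillary genes to 1.77 for acute-phase and complement genes, and the points of most lists lie on both sides of 0.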

How the data were processed

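The data were 2 single-cell libraries, 1 per condition. The authors aligned the reads to mm10 (GRCm38) and made UMI counts per gene and barcode with Cell Ranger 7.0.1, and deposited raw counts that were not normalized. Their annotation release is not given in the sources used here. Libraries were grouped by the treatment in the labels. Members and gene lists were chosen with earlier results of these data known.

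Scripts in Python 3.11.15 (pandas 2.3.3, scipy 1.17.1, numpy 2.4.6) applied the rule, summed UMIs per class and library, and computed CPM, ratios and exact 95% intervals. matplotlib 3.10.9 drew the plots. For the 38 symbols carried by more than 1 gene ID, the ID with the most UMIs was used. Genes were compared with at least 20 UMIs over both libraries. A count of 0 was given a floor of 3 counts per library. Cells were thinned to 2000 UMIs with a random seed of 1, which left out 3 PBS and 14 CFA arterial cells. Arterial cells held 3226673 PBS and 1981827 CFA UMIs.

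No doublet caller was run. Droplets with 10 or more UMIs of another cell type, erythroid cells aside, were left out as an alternative chosen after seeing the data. A sum without *Stmn2* and a rule applied after thinning were chosen after seeing the data as well. Named genes are members of 18 gene lists, the top 12 and bottom 12 genes by CFA to PBS ratio, ranked on the interval bound nearest to 1, and the top 15 genes by arterial to capillary ratio outside the rule. The last were ranked on the lower interval bound in the library where it was lower. The ratio rankings left out mitochondrial, ribosomal protein, hemoglobin and immunoglobulin genes. They also left out genes under the level of marker-free cells in the library where the arterial level was higher. Both rankings were repeated without mixed droplets. The ratio step was tested on simulated data. Alternatives on the limits, scaling, depth and filters are given in the closing section. Gene positions are from the annotation of GRCm38 and promoters from RefSeq. Values of 2 genes counted in the lists are not reported here.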

Additional observations from a re-analysis of the deposited data

Results flagged for a closer look

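Several genes had a CFA to PBS ratio above 1 in arterial cells and below 1 in another endothelial class, with both counting intervals on opposite sides of 1. With 1 library per condition the difference between the classes was not tested. *Mgp* had a ratio of 3.60 in arterial and 0.0553 in capillary cells, and 9.33 and 0.524 (0.306 to 0.874) without mixed droplets, since most PBS capillary UMIs lay in those (636 UMIs with and 47 without). *Trpv4* had 2.12 and 0.234, where the arterial values were 28.5 CPM in PBS and 60.6 in CFA, and without mixed droplets 2.28 and 0.683 (0.142 to 2.88), on 6 and 4 capillary UMIs. Against venular cells, *Dkk2*, a Wnt inhibitor, had 2.28 in arterial and 0.252 in venular cells, on 25 and 35 arterial UMIs, and *Ccl7* had 3.70 and 0.239, on 11 and 25 arterial UMIs, of which 0 and 2 remained without mixed droplets. The *Dkk2* ratios without them were 2.81 and 0.130.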

How the results depend on the processing

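No paired analysis was possible because each condition has 1 library. The CFA to PBS ratio of the arterial share, 0.686, was 1.04 with every cell thinned to 2000 UMIs before the rule, 1.04 with no hemoglobin limit and 0.895 without *Stmn2* in the arterial sum. Under the other alternatives the PBS share stayed above the CFA share, with intervals apart. The shares were 25.5% and 16.3% with a sum of at least 3, and 46.7% and 35.0% with at least 1. They were 31.7% and 21.8% with a mitochondrial limit of 20%, and 33.7% and 23.9% with at least 1000 genes. With no venular limit they were 34.6% and 26.1%, and of all cells within the limits 10.7% and 6.60%. The 700 genes at least 2-fold higher became 373 with cells thinned before summing, 445 without the 5% deepest arterial cells, 348 with cells thinned before the rule, 409 with at least 50 UMIs, 1614 with at least 1 UMI in each library and 1697 at 1.5-fold. The 689 lower genes became 1043 with a mean over cells, 419 without cells holding 2 or more mural or fibroblast UMIs, 276 with cells thinned before the rule, 372 with at least 50 UMIs, 1254 with at least 1 UMI in each library and 1829 at 1.5-fold. The ratio of *Col15a1*, 0.265, was 1.91 (0.551 to 8.34) with cells thinned before the rule. The median of the antigen presentation list, 1.07, was 0.94 with an arterial sum of at least 3. Over the alternatives run, 419 ratios of named genes stayed within the counting interval of the reported ratio, 131 moved out of it and 1 changed direction, and 211 list medians stayed within the interval of the reported median, 4 moved and 0 changed direction. With cells thinned before the rule the acute-phase list had no finite median. Scaling by the median ratio or without mitochondrial, hemoglobin and ribosomal genes shifted every log2 ratio by -0.01 and -0.03. The alternatives without *Stmn2*, without mixed droplets and with thinning before the rule were chosen after seeing the data. Thinning arterial cells to 2000 UMIs took the share with a *Gja5* UMI from 18.9% to 6.74% in PBS. In CFA the share went from 31.7% to 14.7%. The part of depth in the difference between the libraries, and the causes of the moves between settings, were not tested.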

Other observations

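A group of cells that the rule left out carried arterial transcripts as well. Of the venular cells, with 3 or more UMIs of *Selp*, *Ackr1* and *Plvap*, 24 of 80 PBS and 51 of 178 CFA cells had an arterial sum of at least 2. Venular cells were the deepest endothelial class, with medians of 12900.0 and 13254 UMIs. The *Ptprc* limit removed 98 PBS and 240 CFA cells with at least 3 endothelial UMIs, and with that limit dropped arterial cells made up 29.5% and 19.7%.

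Some genes of arterial over capillary cells also differed between the libraries. *St8sia6*, a sialyltransferase gene, had 91.4 CPM in PBS and 238 in CFA arterial cells, a ratio of 2.60 (2.24 to 3.02), and was 6.15-fold and 9.16-fold over capillary cells. *Alox12* went from 51.4 to 25.7 CPM (interval of the ratio 0.358 to 0.688). *Cytl1*, a secreted protein gene chosen after its values were seen, had 34 UMIs in 9 PBS cells and 159 UMIs in 17 CFA cells, a ratio of 7.61 (5.23 to 11.4).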
